A study of Mus musculus with 6 samples.

Results

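Malat1, Neat1 and Kcnq1ot1 are long noncoding RNAs that stay in the nucleus, and the 3 genes were followed across the 6 libraries of this series, out of 46983 genes in the count files. They were chosen by name and matched by gene identifier without its version number, and all 3 were found and passed the filter on low counts that left 12748 genes for testing. Ribosomal-RNA-depleted total RNA had been sequenced from naive CD4 T cells of male mice, sorted from lymph nodes as live cells by surface markers that included TCRb+, CD4+ and CD44-. In 4 libraries the mice were Cmtr1 fl/fl and carried CD4cre (Cmtr1 cKO), and in 2 libraries they were Cmtr1 fl/fl without CD4cre (control), so both groups carry the floxed alleles. CD4-Cre acts from the thymus onward, in the common precursors of CD4 and CD8 T cells, so a recombined cell has lacked the gene since then. The ages of the mice, and whether each library came from a separate mouse, were not given in the sources used here. Accordingly, the p-values measure only how far these libraries spread, which may be technical.

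CMTR1 adds a methyl group to the ribose of the nucleotide next to the cap on RNA polymerase II transcripts. All 3 RNAs are polymerase II transcripts, but none is translated. Malat1 is among the most abundant nuclear RNAs of mammalian cells and gathers in nuclear speckles, and its 3' end is cut by RNase P at a tRNA-like structure and guarded by a triple helix. Neat1 is the scaffold of paraspeckles, where its long isoform, with an end of the same kind, is coated by RNA-binding proteins such as SFPQ and NONO. Kcnq1ot1 is an unspliced, imprinted antisense RNA, transcribed from the paternal allele inside Kcnq1, which silences neighbouring genes in cis.

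Malat1 (ENSMUSG00000092341.2) lies on chromosome 19 from 5795690 to 5802672 and Neat1 (ENSMUSG00000092274.2) from 5824708 to 5845478, both on the minus strand of GRCm38 in GENCODE vM21, 22035 bases apart. Kcnq1ot1 (ENSMUSG00000101609.1) lies on chromosome 7 from 143203458 to 143296549, also on the minus strand. The annotated exons cover 100% of the span of each gene, 6983, 20771 and 93092 bases for Malat1, Neat1 and Kcnq1ot1, so in that annotation every base of the 3 genes is exon. For a spliced gene, by contrast, reads in introns fall into the class of reads outside annotated exons. The start regions are shown because CMTR1 acts on the nucleotide at which transcription starts. RefSeq (GRCm38.p6) gives them for Malat1, at chr19:5802623-5802922, and Kcnq1ot1, at chr7:143296498-143296797, both on the minus strand and printed 5′ to 3′. The lone capital marks the annotated first transcribed base, and runs of capitals mark CCAAT, searched on both strands with no overlap between matches.
Malat1: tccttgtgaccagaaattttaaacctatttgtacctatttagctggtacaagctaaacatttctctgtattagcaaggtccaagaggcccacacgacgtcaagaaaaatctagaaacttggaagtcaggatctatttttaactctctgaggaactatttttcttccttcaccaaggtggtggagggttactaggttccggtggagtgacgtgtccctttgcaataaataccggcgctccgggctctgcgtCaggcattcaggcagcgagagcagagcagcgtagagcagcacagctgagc
Kcnq1ot1: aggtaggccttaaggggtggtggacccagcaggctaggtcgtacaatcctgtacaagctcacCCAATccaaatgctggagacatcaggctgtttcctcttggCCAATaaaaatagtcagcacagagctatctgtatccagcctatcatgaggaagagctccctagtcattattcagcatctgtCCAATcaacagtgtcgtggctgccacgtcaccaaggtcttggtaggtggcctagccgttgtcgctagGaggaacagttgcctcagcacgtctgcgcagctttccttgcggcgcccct

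The annotated first base is C for Malat1 and G for Kcnq1ot1, and among 32851 mouse start regions of the same length in that table the first base is C in 16.3% and G in 35.6%. The Kcnq1ot1 window holds 3 CCAAT boxes, which begin at positions -188, -148 and -67 counted from the first transcribed base and all read on the gene's own strand, and the Malat1 window holds 0. At least 1 CCAAT is present in 37.4% of these start regions and at least 3 in 3.37%. GENCODE places the start of Kcnq1ot1 at 143296549 and RefSeq at 143296547, so the first base depends on the annotation, and the start used in these cells was not measured.

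Gene counts ran from 9513874 to 11526912 per library in Cmtr1 cKO and from 11120548 to 11949838 in controls. Reads outside annotated exons were counted by strand, so reads opposite to an exon, with no exon on their own strand, are among them. Gene counts on the sense strand were 18.7, 18.9, 5.57 and 22.1 times those on the other strand in Cmtr1 cKO 1 to 4. The ratio was 22.5 and 22.7 in controls. How much such reads add to the share was not tested. Reads outside annotated exons made up 52.3%, 51.6%, 46.7% and 38.02% of uniquely mapped reads in Cmtr1 cKO 1 to 4, against 37.2% and 33.96% in controls 1 and 2. The mean was 47.2% ± 6.6 in Cmtr1 cKO and 35.6% ± 2.3 in controls (SD, n = 4 and n = 2), and the exact two-sided permutation test gave p = 0.133, where 0.0667 is the smallest p that 15 splits allow. Cmtr1 cKO 4 lay close to control 1 and well below the other Cmtr1 cKO libraries. Cmtr1 cKO 3 stood apart in another way, since the ribosomal RNA gene CT010467.1 took 4.77% of its gene counts and at most 0.0284% of those in any other library. The targeted gene, Cmtr1, had 16.0, 19.8, 14.6 and 7.57 CPM (counts per 1000000 gene counts, scaled by TMM) in Cmtr1 cKO 1 to 4, against 11.2 and 11.4 CPM in controls (log2 fold change 0.36, edgeR adjusted p = 0.461). Its counts do not separate the genotypes. The floxed exon was not given in the sources used here. Gene counts therefore do not check the labels, and the libraries are named by their labels throughout. Of the naive CD4 T cell markers, Cd4, Cd3d, Cd3e, Lck, Cd28, Ccr7, Il7r, Lef1 and Tcf7 were detected in every library. Cd4 had 793.4 to 864.1 CPM in Cmtr1 cKO and 755.4 to 775.9 CPM in controls, and Ccr7 was called lower (log2 fold change -0.36, edgeR adjusted p = 0.0433). Mitochondrial genes took 2.92% to 3.61% of gene counts in Cmtr1 cKO and 4.62% to 4.67% in controls. Summed markers of B cells (19 to 37 CPM in Cmtr1 cKO, 28 to 37 in controls), CD8 T cells (17 to 21 in Cmtr1 cKO, 24 to 29 in controls), myeloid cells (4.6 to 7.5 in Cmtr1 cKO, 6.1 to 18.3 in controls) and red cells (0.6 to 2.8 in Cmtr1 cKO, 2.0 to 3.9 in controls) were low in both groups, and none of the 11 markers tested in these lists was called. Of 5 NK and cytotoxic markers only 2 were tested, Prf1 and Nkg7 (edgeR adjusted p = 4.6e-05 and 0.0486), and both were called lower. The summed level was 10 to 14 CPM in Cmtr1 cKO against 38 to 51 CPM in controls. Most of it was Prf1, at 8.4 to 12.0 CPM in Cmtr1 cKO against 47.7 and 36.2 CPM in controls. Klrb1c, Ncr1 and Gzmb had at most 0.73 CPM in any library. The part of these cells and of the mitochondrial share in the results below was not tested, and in bulk RNA fewer cells of a type and less RNA per cell cannot be told apart.

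Malat1 had by far the most counts of the 3 RNAs. It had 18433, 18803, 14114 and 9190 CPM in Cmtr1 cKO 1 to 4, against 10499 and 7936 CPM in controls 1 and 2. The first 3 Cmtr1 cKO libraries were above both controls, and Cmtr1 cKO 4 lay between the controls, so the groups overlapped. As a share of all gene counts it took 1.95% (95% Wilson interval 1.941% to 1.958%), 1.99% (1.98% to 1.99%), 1.402% (1.39% to 1.41%) and 0.927% (0.921% to 0.932%) in Cmtr1 cKO 1 to 4, against 1.00% (0.999% to 1.01%) and 0.735% (0.730% to 0.740%) in controls. These intervals cover counting error only and are narrow beside the spread between libraries of the same genotype. By count, Malat1 ranked 3, 2, 5 and 6 among all genes in Cmtr1 cKO 1 to 4, and 7 and 8 in controls. The mean was 15135 ± 4499 CPM in Cmtr1 cKO and 9217 ± 1813 CPM in controls (SD, n = 4 and n = 2). The difference, a log2 fold change of 0.72 ± 0.27 (SE), did not pass the quasi-likelihood test of edgeR after Benjamini-Hochberg adjustment (adjusted p = 0.107).

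These are counts on the gene's own strand. Counted without regard to strand, Malat1 had fewer, 156210, 162606, 106300 and 85137 in Cmtr1 cKO 1 to 4 and 95802 and 65434 in controls, against 199125, 207316, 133406 and 106838 own-strand counts in Cmtr1 cKO and 120082 and 81711 in controls. A gene annotated within Malat1 on the other strand, Gm37376, makes reads there ambiguous once strand is ignored. The log2 fold change was 0.68 without strand (adjusted p = 0.0989) and again was not called.

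Neat1, the paraspeckle scaffold, had 312.7, 281.4, 215.9 and 128.3 CPM in Cmtr1 cKO 1 to 4, against 130.0 and 109.4 CPM in controls 1 and 2. Cmtr1 cKO 1 to 3 were again above both controls and Cmtr1 cKO 4 lay between them. The log2 fold change of 0.97 ± 0.39 (SE) was the largest of the 3 and likewise was not called (edgeR adjusted p = 0.173), at 234.6 ± 81.5 CPM in Cmtr1 cKO and 119.7 ± 14.6 CPM in controls (SD).

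Kcnq1ot1, the imprinted antisense RNA, had 549.5, 528.2, 425.8 and 310.5 CPM in Cmtr1 cKO 1 to 4, against 317.2 and 280.6 CPM in controls 1 and 2. The order of the libraries was that of Neat1, with Cmtr1 cKO 4 between the controls. Its log2 fold change was 0.60 ± 0.21 (SE), at 453.5 ± 109.6 CPM in Cmtr1 cKO and 298.9 ± 25.9 CPM in controls (SD), and it was not called (edgeR adjusted p = 0.095).

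**Figure D1:**
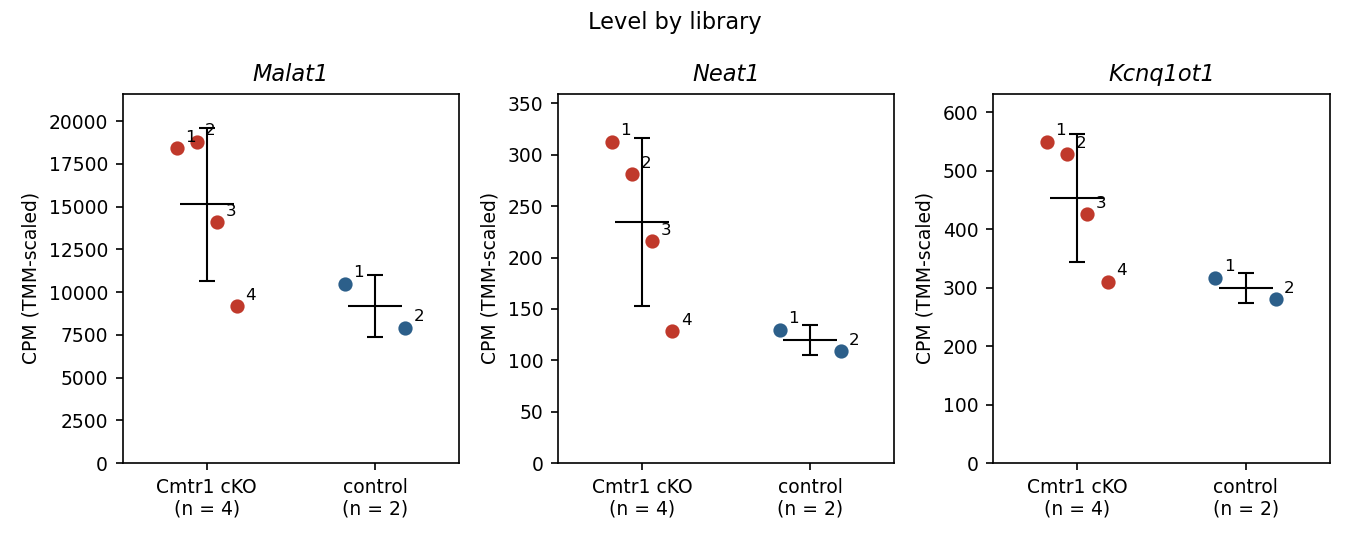
Level of Malat1, Neat1 and Kcnq1ot1 in CPM (y axes from 0) in each library, Cmtr1 cKO on the left and control on the right. Numbered points are libraries, and black bars are the mean and SD of 4 and 2 libraries. In each panel Cmtr1 cKO 1 to 3 lie above both controls and Cmtr1 cKO 4 lies between them.

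So 0 of the 3 RNAs were called by edgeR, and 0 by DESeq2, against 11.4% of all 12748 genes tested, of which 594 were higher (4.66%) and 863 lower (6.77%). Without adjustment 2 of the 3, Malat1 and Kcnq1ot1, were under 0.05, as were 30.9% of all genes, and Neat1 was not. With total gene counts as library size the split of calls was 1441 higher and 418 lower, and with all uniquely mapped reads as library size it was 202 higher and 975 lower. These scalings moved the median log2 fold change of all genes by 0.13 and -0.19. Relative to that median the 3 RNAs stayed where they were, at 0.72 and 0.69 for Malat1, 0.98 and 0.94 for Neat1 and 0.61 and 0.58 for Kcnq1ot1, although Neat1 was called with the second scaling (log2 fold change 0.75, adjusted p = 0.0198). The 3 fold changes ranked at the 93.4th (Malat1), 96.5th (Neat1) and 91.3rd (Kcnq1ot1) percentile of all genes tested. Cmtr1 cKO 4 decided the calls. Without it Malat1, Neat1 and Kcnq1ot1 had log2 fold changes of 0.89, 1.17 and 0.75, and all 3 were called (edgeR adjusted p = 0.00223, 0.0113 and 0.000315), while the number of genes called in all went to 3880. Leaving out any other library called none of the 3.

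Levels of different genes can be set side by side only per length. Per kilobase of exon, Malat1 had a mean of 2167 CPM in Cmtr1 cKO and 1320 CPM in controls, Neat1 11.3 CPM in Cmtr1 cKO and 5.76 CPM in controls, and Kcnq1ot1 4.87 CPM in Cmtr1 cKO and 3.21 CPM in controls. The order of Malat1 over Neat1 over Kcnq1ot1 held in each of the 6 libraries. The Neat1 value averages its short and long isoforms, which share their 5' end and which gene counts do not separate, so the level over the shared part is understated.

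The 3 RNAs followed the share of reads outside exons. Over the 6 libraries the log2 CPM of Malat1 had a Pearson r of 0.986 with that share (exact permutation p = 0.00556, adjusted over the 3 RNAs 0.00556) and a Spearman rho of 0.886 (exact p = 0.0333, adjusted 0.0333). For Neat1 the values were r = 0.998 (exact permutation p = 0.00278, adjusted 0.00417) and rho = 0.943 (exact p = 0.0167, adjusted 0.025). For Kcnq1ot1 they were r = 0.997 (exact permutation p = 0.00278, adjusted 0.00417) and rho = 0.943 (exact p = 0.0167, adjusted 0.025). In all 3, Cmtr1 cKO 4 had a slightly higher share than control 1 and a lower level, and Malat1 was in addition higher in Cmtr1 cKO 2 than in Cmtr1 cKO 1, which had the larger share. Without Cmtr1 cKO 1 and 2, the libraries farthest from the median share, r was 0.954, 0.995 and 0.994 for Malat1, Neat1 and Kcnq1ot1 over the 4 libraries left. No library had a share between 38.02% and 46.7%, so the relation rests in part on the step between the lower 3 libraries and the upper 3. In those 4 libraries Cmtr1 cKO 3 alone lies above the step. It is also the library with the low strand ratio (5.57) and with 4.77% of gene counts on CT010467.1. The part of these traits in its share was not tested. Of all 12748 genes tested 157 had a higher r than Malat1 (1.23%), 13 a higher r than Neat1 (0.102%) and 25 a higher r than Kcnq1ot1 (0.196%).

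**Figure D2:**
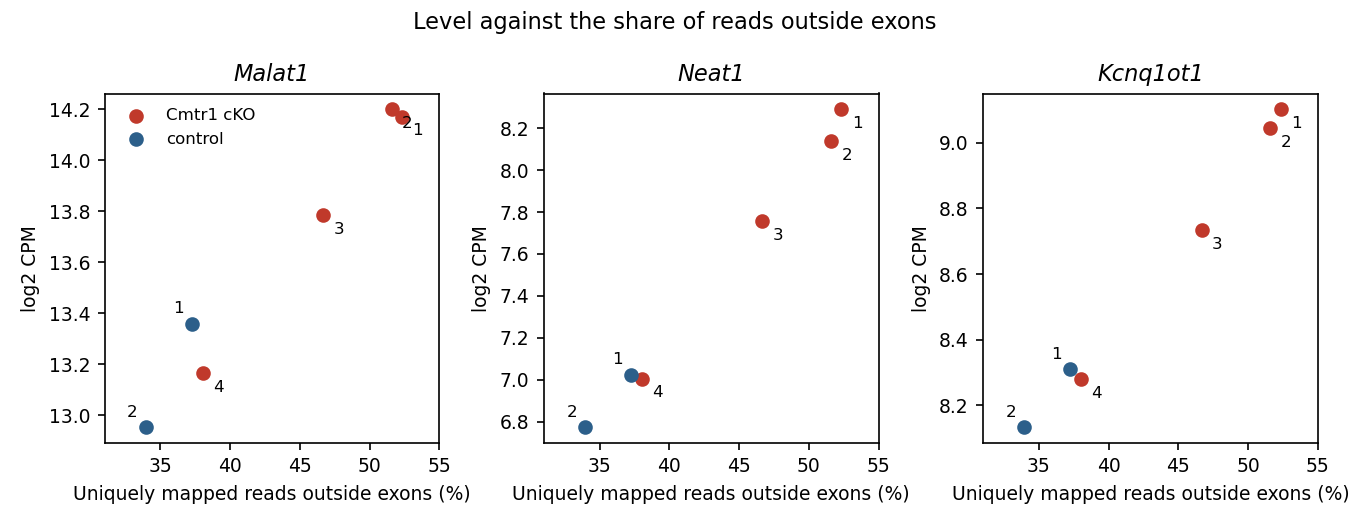
Level of Malat1, Neat1 and Kcnq1ot1 (y axes, log2 CPM, each on its own range) against reads outside annotated exons as a percentage of uniquely mapped reads (x axes). Each numbered point is a library, red for Cmtr1 cKO and blue for control. Cmtr1 cKO 4, at 38.02%, lies beside control 1, at 37.2%, in all 3 panels.

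The share and a gene's CPM are linked in part by construction, because reads outside exons are left out of the counts that CPM are scaled to. With all uniquely mapped reads as library size, Neat1 had 155, 142, 104 and 78.9 counts per 1000000 uniquely mapped reads in Cmtr1 cKO 1 to 4, against 76.8 and 65.8 in controls. Malat1 had 9146, 9454, 6801 and 5652 in Cmtr1 cKO, against 6204 and 4773 in controls, and Kcnq1ot1 had 272.6, 265.6, 205.2 and 191.0 in Cmtr1 cKO, against 187.4 and 168.7 in controls. On this scale Neat1 and Kcnq1ot1 fell in exactly the order of the share, and r was 0.959 for Malat1, 0.99 for Neat1 and 0.958 for Kcnq1ot1 (exact permutation p = 0.00556, 0.00139 and 0.00139, adjusted 0.00556, 0.00208 and 0.00208). Spearman's rho was 0.886, 1.0 and 1.0, and without Cmtr1 cKO 1 and 2 r was 0.858, 0.994 and 0.917.

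When the share entered the edgeR model beside genotype, it was the share and not genotype that was called for the 3 RNAs. Per 10 percentage points of the share, Neat1 was higher by a log2 value of 0.87 ± 0.05 (SE), a factor of 1.82, with an adjusted p of 1.03e-10. Malat1 was higher by 0.75 ± 0.10 (SE, adjusted p = 2.25e-05), a factor of 1.68, and Kcnq1ot1 by 0.57 ± 0.04 (SE, adjusted p = 7.08e-09), a factor of 1.49. In the same fit 1246 genes rose with the share (9.77%) and 1071 fell (8.4%), with a median of -0.0025 over all genes. With all uniquely mapped reads as library size 371 genes rose and 4045 fell (median -0.21), and 100 rose and 111 fell without Cmtr1 cKO 4, 561 and 349 without Cmtr1 cKO 1, and 735 and 513 without Cmtr1 cKO 2. The 3 RNAs were called as rising in each of these fits. The genotype term turned to -0.19 ± 0.15 for Malat1, -0.10 ± 0.07 for Neat1 and -0.09 ± 0.06 for Kcnq1ot1 (SE), with adjusted p = 0.52, 0.5 and 0.486, while 666 genes were called for genotype (5.22%), 320 higher (2.51%) and 346 lower (2.71%). The test of the share term itself was chosen after seeing the data. The share was higher in each Cmtr1 cKO library than in either control, so with 2 control libraries the genotype and the share can be only partly separated.

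Among themselves the 3 RNAs moved nearly as a unit. Over the 6 libraries the log2 CPM of Neat1 and Kcnq1ot1 had r = 0.9986, and Malat1 had r = 0.9866 with Neat1 and 0.991 with Kcnq1ot1. Many other genes moved with them as closely. Of 8474 genes with a mean of at least 10 CPM, Kcnq1ot1 ranked 37 and Neat1 66 by r with Malat1. By r with Neat1, Kcnq1ot1 ranked 2. The sizes of change of the 3 RNAs differed. Ratios of counts within a library do not depend on library size, and Kcnq1ot1 had 1.76, 1.88, 1.97 and 2.42 counts per Neat1 count in Cmtr1 cKO 1 to 4, against 2.44 and 2.57 in controls. Every Cmtr1 cKO library lay below both controls (exact two-sided permutation p = 0.133 for the means of 2.01 ± 0.29 in Cmtr1 cKO and 2.503 ± 0.089 in controls, SD). This ratio fell without exception as the share of reads outside exons grew (r = -0.992, exact permutation p = 0.00139, adjusted over 3 ratios 0.00417, rho = -1.0, exact p = 0.00278, adjusted 0.00833, and r = -0.994 without Cmtr1 cKO 1 and 2). Neat1 had 1.70, 1.497, 1.53 and 1.397 counts per 100 Malat1 counts in Cmtr1 cKO 1 to 4, against 1.24 and 1.38 in controls, with r = 0.823 to the share (exact permutation p = 0.0361, adjusted 0.0528). Kcnq1ot1 had 2.98, 2.81, 3.02 and 3.38 counts per 100 Malat1 counts in Cmtr1 cKO, against 3.02 and 3.54 in controls, with r = -0.816 (exact permutation p = 0.0528, adjusted 0.0528). By rank both of these ratios passed (rho = 0.886 and -0.886, exact p = 0.0333, adjusted 0.0333), by r neither did, and without Cmtr1 cKO 1 and 2 r was 0.694 and -0.693.

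Together the 3 RNAs took 2.04%, 2.07%, 1.47% and 0.971% of gene counts in Cmtr1 cKO 1 to 4, against 1.05% and 0.771% in controls, nearly all of it Malat1. The means of 1.64% ± 0.52 in Cmtr1 cKO and 0.909% ± 0.196 in controls (SD) gave p = 0.2 in the exact two-sided permutation test.

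Among 8475 genes with a mean of at least 10 CPM, the 3 genes whose log2 CPM was most like that of Malat1 over the 6 libraries were Traj24, Traj15 and Traj14, joining segments of the T cell receptor alpha locus on chromosome 14, of which Traj14 is annotated as a pseudogene (r = 0.9999, 0.9993 and 0.9986). Traj24, for instance, had 24.8, 25.4, 19.04 and 12.1 CPM in Cmtr1 cKO 1 to 4, against 13.8 and 10.4 CPM in controls. The genes most like Neat1 were A130071D04Rik (r = 0.9991), Kcnq1ot1 itself and Gm20696 (r = 0.9983), and those most like Kcnq1ot1 were 4932438A13Rik (r = 0.9994), the long noncoding RNA Gm26551 (r = 0.9993) and Sf1 (r = 0.9991), which encodes the splicing factor that binds the branch point. Their slopes with the share of reads outside exons, which the choice by likeness largely fixes, ran from 0.19 (4932438A13Rik) to 1.21 (Gm20696) in log2 per 10 points. With 6 libraries and so many genes, high values of r are common, and these names are a description.

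The share term was also counted by gene structure, as a description. Of 1666 genes tested whose annotated exons cover their whole span, 393 rose with the share (23.6%) and 69 fell, with a median of 0.29 per 10 points. Of all genes 9.77% rose and 8.4% fell, with a median of -0.0025. The 1666 mix gene classes and include Traj24, Traj15, Traj14 and A130071D04Rik. Apart from the long noncoding genes, their classes were not counted separately. The long noncoding genes (lincRNA or antisense class) were near the share of all genes whether or not they had introns. Of the 101 without introns, which include the 3 RNAs, 8 rose (7.92%) and 4 fell, and of the 385 with introns 32 rose (8.31%) and 6 fell. Their medians per 10 points were 0.07 and 0.15, below the values of each of the 3 RNAs.

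Other nuclear long noncoding RNAs gave a mixed picture. Of 26 listed, 13 passed the filter, and between the genotypes 1 was called higher and 1 lower (15.4%, near the 11.4% of all genes), with a median log2 fold change of 0.28 against -0.0005 over all genes. Firre, an X-linked RNA that organises chromatin contacts, had 11.2, 11.2, 9.10 and 7.83 CPM in Cmtr1 cKO 1 to 4, against 5.51 and 5.15 CPM in controls (log2 fold change 0.88, edgeR adjusted p = 0.0191). All 4 Cmtr1 cKO libraries were above both controls, as was the case for 18.2% of all genes tested. Peg13, an imprinted RNA of the Kcnk9 region, fell to 35.0, 35.8, 36.9 and 35.9 CPM in Cmtr1 cKO, against 48.4 and 46.3 CPM in controls (log2 fold change -0.40, edgeR adjusted p = 0.0107). Its Cmtr1 cKO values hardly differed among themselves, unlike those of Malat1, Neat1 and Kcnq1ot1, and it kept its call with the share as covariate (-0.39, adjusted p = 0.0403), where Firre lost it (0.44, adjusted p = 0.32).

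Airn, an imprinted antisense RNA of the Igf2r locus that silences in cis much as Kcnq1ot1 does, had 39.2, 35.0, 21.6 and 19.1 CPM in Cmtr1 cKO 1 to 4, against 12.7 and 14.1 CPM in controls. Every Cmtr1 cKO library was above both controls, as for 18.2% of all genes tested, but the log2 fold change of 1.11 ± 0.30 (SE) missed the threshold (edgeR adjusted p = 0.0512). Airn rose with the share by 0.69 per 10 points (adjusted p = 0.00225), as did Pvt1 (0.66, adjusted p = 0.00019), Lncpint (0.53, adjusted p = 6.45e-05) and Dleu2 (0.24, adjusted p = 0.00532), and the other 9 of the 13 tested did not pass that test. Of all genes tested 9.77% rose with the share and 8.4% fell. Tug1, the most abundant of the list at 182.3 CPM in Cmtr1 cKO and 187.4 CPM in controls, had a log2 fold change of -0.04 and -0.05 per 10 points of the share, and neither was called. The number called higher and lower was 1 and 1 without Cmtr1 cKO 1, and 0 and 1 without Cmtr1 cKO 2. It was 2 and 1 without Cmtr1 cKO 3, and 7 and 1 without Cmtr1 cKO 4. Over all genes these fits called 272 higher and 472 lower, 228 and 435, 222 and 384, and 1940 and 1940. With control 1 or control 2 left out 1 control remained, so only the median log2 fold change of the list is given, 0.27 and 0.26. Xist, Tsix and Meg3 had at most 4 counts in any library.

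Long noncoding RNAs listed as largely exported to the cytoplasm were mostly lower, but the list holds mainly hosts of small nucleolar RNAs. It was chosen with earlier results of these data known. Of 11 listed, 9 passed the filter, 7 were lower and 0 higher (77.8% called, against 11.4% of all genes). The median log2 fold change was -0.90. The same 7 genes were lower with the share as covariate (median -0.87), where 2.71% of all genes were lower. Gas5, a host of small nucleolar RNAs, averaged 60.8 CPM in Cmtr1 cKO and 156.4 CPM in controls (log2 fold change -1.36), and Zfas1 (-1.26), Snhg1 (-0.94) and Snhg6 (-0.94), hosts of the same kind, also fell. The other called genes, Snhg5, Snhg8 and Snhg12, are such hosts too. Export and being a host therefore cannot be told apart in this list. Norad (2900097C17Rik), which sequesters Pumilio proteins, averaged 25.98 CPM in Cmtr1 cKO and 27.7 CPM in controls and was not called (edgeR adjusted p = 0.7). The number called lower was 7 or 8 without a Cmtr1 cKO library, where 384 to 1940 of all genes were lower. With control 1 or control 2 left out 1 control remained, so only the median log2 fold change of the list is given, -0.84 and -0.81.

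Among the genes for proteins that build paraspeckles on Neat1, all 24 listed passed the filter, 5 were higher and 1 lower (25% called, against 11.4% of all genes), and the median log2 fold change was 0.22. Only RNA was measured, here and in the lists below. Ewsr1, an RNA-binding protein of the FET family, had 557.9, 580.1, 575.8 and 513.3 CPM in Cmtr1 cKO 1 to 4, against 375.9 and 364.0 CPM in controls (log2 fold change 0.59, edgeR adjusted p = 0.00129). Sfpq, a core paraspeckle protein, had 437.0, 448.0, 425.8 and 410.4 CPM in Cmtr1 cKO, against 305.8 and 358.9 CPM in controls (0.37, adjusted p = 0.0187). In both, Cmtr1 cKO 4 was close to the other Cmtr1 cKO libraries. Every Cmtr1 cKO library was above both controls, as for 18.2% of all genes tested. Tardbp (TDP-43) rose by 0.44, Pspc1, the partner of SFPQ and NONO, by 0.32 and Dazap1 by 0.28, and Hnrnpa1, a splicing repressor, fell by 0.41 on the log2 scale. Nono had -0.22 and Hnrnpk, the most abundant of the list at 599.0 CPM in Cmtr1 cKO and 611.3 CPM in controls, had -0.03, and neither was called.

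Hnrnph3, which is needed for paraspeckles to form, had the library order of Neat1, with 54.2, 48.98, 38.3 and 26.8 CPM in Cmtr1 cKO 1 to 4, against 29.03 and 23.2 CPM in controls. It was not called for genotype (log2 fold change 0.68, edgeR adjusted p = 0.135) and rose with the share by 0.70 per 10 points (adjusted p = 3.22e-06). Of the 24 genes 8 rose with the share and 3 fell, where 9.77% of all genes rose and 8.4% fell. With the share as covariate Ewsr1 (0.47) and Sfpq (0.32) stayed higher for genotype and Hnrnpa1 (-0.44) stayed lower, and Rbmx (-0.31) was called lower where it had not been (-0.06). With all uniquely mapped reads as library size 0 were higher and 1 was lower, against 202 and 975 of all genes. Without Cmtr1 cKO 1, 2, 3 and 4 the numbers higher were 3, 1, 1 and 12. Over all genes 272, 228, 222 and 1940 were higher in these fits. With control 1 or control 2 left out 1 control remained, so only the median log2 fold change of the list is given, 0.24 and 0.23.

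Genes for proteins of nuclear speckles, where Malat1 gathers, were called higher in 8 of 22 cases and lower in 0 (36.4% called, against 11.4% of all genes), with a median log2 fold change of 0.25. The largest were Pnisr (0.54), Clk1 (0.45), a kinase of SR splicing factors, Luc7l3 (0.41) and Srsf5 (0.40). Srrm2, a scaffold of speckles and the most abundant of the list, averaged 1190 CPM in Cmtr1 cKO and 1016 CPM in controls (0.23), and Son, the other scaffold, 1140 CPM in Cmtr1 cKO and 920.3 CPM in controls (0.31), and neither was called (edgeR adjusted p = 0.118 and 0.0579). With the share as covariate 2 of 22 were higher, 1 of them among the 8, where 2.51% of all genes were higher. In that fit 12 rose with the share and 2 fell, where 9.77% of all genes rose and 8.4% fell. With all uniquely mapped reads as library size 0 of 22 were called, against 202 higher and 975 lower of all genes. The numbers called higher were 2, 2, 2 and 16 without Cmtr1 cKO 1, 2, 3 and 4. Over all genes 272, 228, 222 and 1940 were higher in these fits. With control 1 or control 2 left out 1 control remained, so only the median log2 fold change of the list is given, 0.30 and 0.25. Hnrnpc, which in human cells binds MALAT1 at a site opened by m6A, had -0.21 and was not called.

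Of 25 genes for factors of 3' end processing, m6A and nuclear decay, 24 passed the filter, 2 were higher and 0 lower, and the median was 0.10. The share called, 8.33%, was below the 11.4% of all genes. The 2 were Cpsf6 (0.40), part of the cleavage factor that favours the short Neat1 isoform, and Zfc3h1 (0.44), of the nuclear exosome targeting complex for polyadenylated RNA. With the share as covariate 0 were called, against 5.22% of all genes. With all uniquely mapped reads as library size 0 were higher and 1 lower, against 202 and 975 of all genes. Without Cmtr1 cKO 3, 0 were called, where 222 of all genes were higher and 384 lower. Without Cmtr1 cKO 4, 5 were higher and 3 lower, against 1940 and 1940 of all genes. With control 1 or control 2 left out 1 control remained, so only the median log2 fold change of the list is given, 0.13 and 0.086. Rpph1, the RNA subunit of RNase P, which makes the Malat1 3' end, had 9585, 10213, 11788 and 12452 CPM in Cmtr1 cKO 1 to 4, against 13323 and 18415 CPM in controls. Its Cmtr1 cKO values were all below both controls, as for 20.8% of all genes, and it was not called (log2 fold change -0.53, edgeR adjusted p = 0.088). Elac2, the RNase Z that trims the tRNA-like product, had 0.07, and Mettl16, which binds the triple helix of human MALAT1, 0.18, and neither was called.

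**Figure D3:**
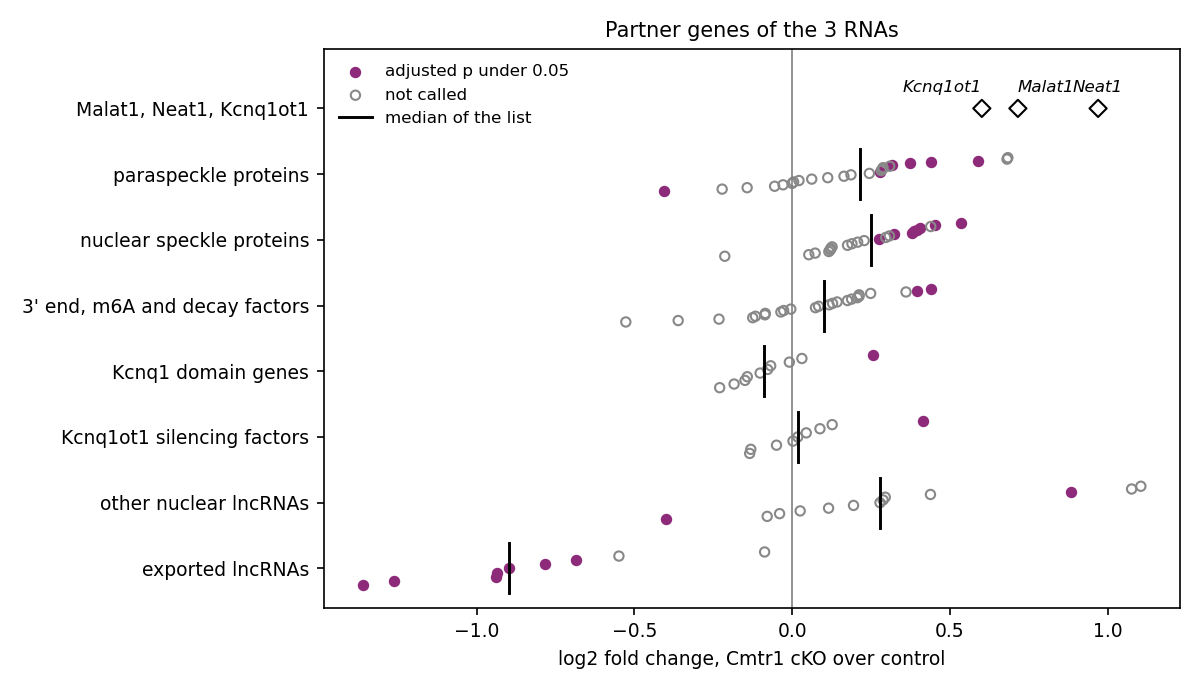
Log2 fold change (x axis, Cmtr1 cKO over control) of every gene tested in each partner list and of Malat1, Neat1 and Kcnq1ot1 (diamonds). Filled circles passed an adjusted p under 0.05, open symbols did not, and black bars are list medians, which run from -0.90 for exported long noncoding RNAs to 0.28 for other nuclear ones. Most genes of the exported list are hosts of small nucleolar RNAs.

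Of 21 genes of the imprinted domain that Kcnq1ot1 is known to silence, or that lie beside it, 10 passed the filter, and several of the best known targets were at or near 0 in both groups. Kcnq1, whose introns hold Kcnq1ot1, had 0 counts in every library, as did Phlda2, Slc22a18 and Ascl2, and a count of 0 allows up to 3 counts per library. Cdkn1c, a cell cycle inhibitor of the domain, had 9, 7, 8 and 7 counts in Cmtr1 cKO 1 to 4, against 6 and 5 counts in controls. Among the 10 tested genes 1 was called, Tspan32, a tetraspanin of lymphoid cells, at 257.6 CPM in Cmtr1 cKO and 215.7 CPM in controls (log2 fold change 0.26, edgeR adjusted p = 0.0489). Its call was kept without Cmtr1 cKO 4 and lost without any other library. The call was also lost with the share as covariate, with all uniquely mapped reads as library size and with reads counted without regard to strand. Nap1l4, which encodes a histone chaperone, averaged 181 CPM in Cmtr1 cKO and 182 CPM in controls, and the median log2 fold change of the 10 was -0.09. With the share as covariate Cars, a tRNA synthetase gene, was called lower (-0.52, adjusted p = 0.00794). The share called, 10%, was near the 11.4% of all genes, and so was that of the 9 silencing factors that act with Kcnq1ot1, all tested, with 1 called (11.1%). Ezh2, the H3K27 methyltransferase, was higher at 42.2 CPM in Cmtr1 cKO and 31.7 CPM in controls (0.41, adjusted p = 0.0173), and Dnmt1, the most abundant, was not called (-0.13). The Ezh2 call ended without Cmtr1 cKO 3, without either control, with all uniquely mapped reads as library size and with the share as covariate (0.28, adjusted p = 0.185).

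The genes around Malat1 and Neat1 were looked at next. Within 100 kb of either gene the genes that passed the filter included Map3k11, Ehbp1l1, Sssca1, Gm37376, Frmd8, Slc25a45, Dpf2 and Pola2, and 0 of these 8 were called. Apart from Gm37376 their log2 fold changes ran from -0.10 (Map3k11) to 0.24 (Slc25a45), and 1 of them, Dpf2, rose with the share (0.20 per 10 points, adjusted p = 0.0227). Near Kcnq1ot1 no gene passed the filter, and none had more than 2 counts in any library. Gm37376 is annotated on the plus strand within Malat1, from 5801941 to 5802393, and had 16, 11, 14 and 3 counts in Cmtr1 cKO 1 to 4, against 2 and 1 in controls (edgeR adjusted p = 0.0551).

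Reads on the strand opposite to Malat1 were few. Over its whole length 162, 86, 114 and 46 such reads were counted in Cmtr1 cKO 1 to 4, against 15 and 14 in controls, which makes 8.14, 4.15, 8.55 and 4.31 per 10000 Malat1 counts in Cmtr1 cKO, against 1.25 and 1.71 in controls. All 4 Cmtr1 cKO libraries were above both controls, and the exact two-sided permutation test on the means of 6.28 ± 2.38 in Cmtr1 cKO and 1.48 ± 0.33 in controls (SD) gave p = 0.133. Among 83 genes with a mean of at least 10000 counts the same separation was found in 29 (34.9%), and the median over these genes was 12.2, 9.11, 13.2 and 7.63 per 10000 in Cmtr1 cKO 1 to 4, against 5.85 and 8.86 in controls, so Malat1 lay below the median gene in each library. On the strand opposite to Neat1 there were 1 to 3 reads per library, and opposite to Kcnq1ot1 4 to 8 in Cmtr1 cKO and 1 and 5 in controls, although Kcnq1 runs across it on that strand.

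**Figure D4:**
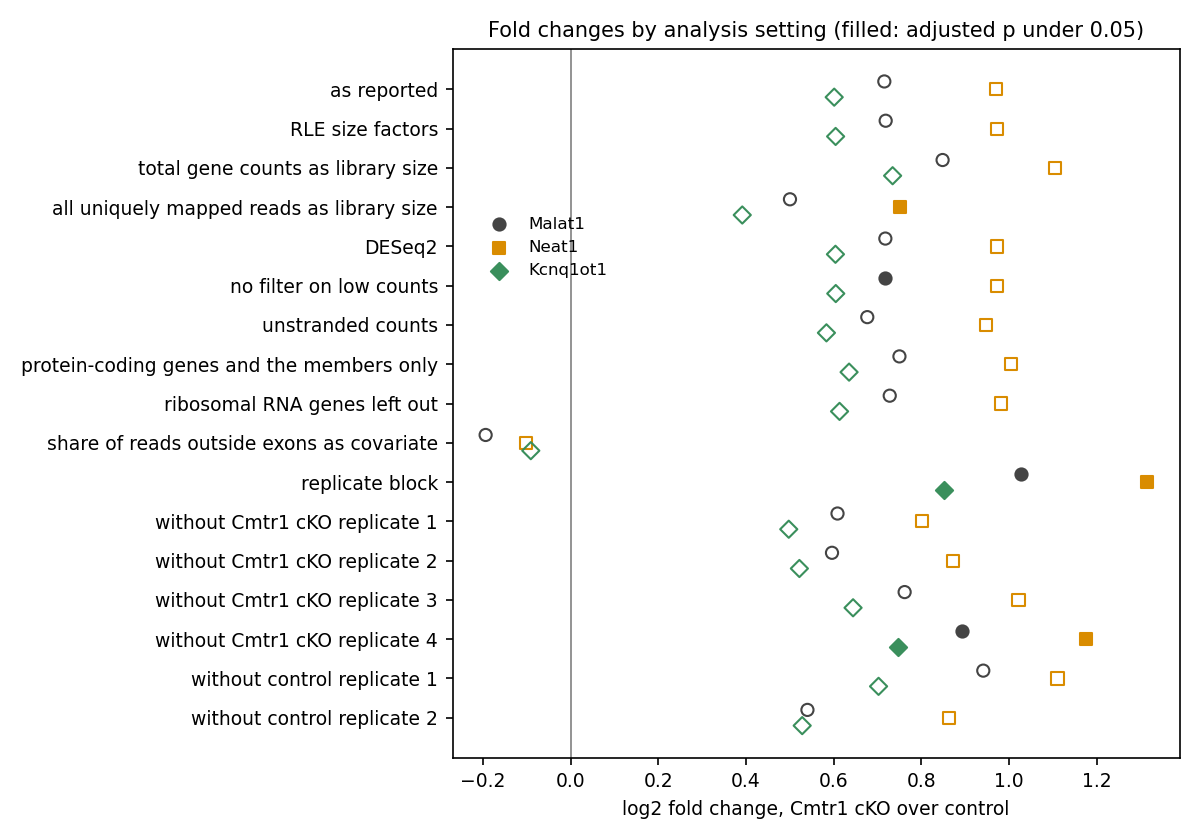
Log2 fold change (x axis, Cmtr1 cKO over control) of Malat1, Neat1 and Kcnq1ot1 under each analysis setting (rows). Filled symbols passed an adjusted p under 0.05. All 3 lie above 0 except in the fit that holds the share of reads outside exons as covariate, where they are -0.19, -0.10 and -0.09.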

How the data were processed

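The authors deposited raw counts of reads per gene for 6 libraries, in the layout of STAR's gene table. The submitters' processing notes list STAR 2.5.2b, edgeR, and the builds mm10 and GRCm38. Which annotation was counted over was not given in the sources used here. Column 4, which holds reads of the sense strand, was used (5.57 to 22.7 times the other stranded column). Rows that name no gene held 52.1% to 62.0% of reads and stayed out of library sizes. Identifiers were matched to GENCODE vM21 without versions (46488 of 46983, 98.9%). Reads that overlap 2 genes on a strand are in no gene's count.

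Genotype was tested over all genes with edgeR 4.0.16 in R 4.3.3 (filterByExpr, TMM, robust quasi-likelihood test, Benjamini-Hochberg, called at adjusted p under 0.05), with genotype as the only term. DESeq2 1.42.0 was an alternative. SE is the log2 fold change over the square root of F. CPM are TMM-scaled. Log2 CPM have a prior count of 2. The code was tested on simulated data. The members and the 7 partner lists were chosen with earlier results of these data known. Named genes were all members, up to 4 called genes per direction and the most abundant of each list, tested genes within 100 kb, and the 3 most correlated genes per member. Others are named for their role or pattern. Start regions are from RefSeq, GRCm38.p6. The share of reads outside exons was a covariate in an alternative fit, and the test of its own term was chosen after seeing the data. Intervals are 95% Wilson intervals. Some genes that these rules name are not reported here.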

Additional observations from a re-analysis of the deposited data

Results flagged for a closer look

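Reads on the strand opposite to Malat1, which the comparisons of levels do not use, averaged 6.28 per 10000 Malat1 counts in Cmtr1 cKO, against 1.48 in controls, and each Cmtr1 cKO library was above both controls. The same separation was found in 29 of 83 genes with a mean of at least 10000 counts (34.9%), and Malat1 lay below the median of these genes in each library. As a share of reads on both strands they were 0.0813% (95% Wilson interval 0.0697% to 0.0948%), 0.0415% (0.0336% to 0.0512%), 0.0854% (0.0711% to 0.103%) and 0.043% (0.0323% to 0.0574%) in Cmtr1 cKO 1 to 4, against 0.0125% (0.00757% to 0.0206%) and 0.0171% (0.0102% to 0.0288%) in controls, with intervals that cover counting error only. Cmtr1 cKO 3 stood far from the other Cmtr1 cKO libraries in the share of uniquely mapped reads that were ambiguous between genes, 4.83% against 0.755% to 0.998%, where the gap took 0.94 of the range of the group. It did so too in the share of gene counts on the ribosomal RNA gene CT010467.1, 4.77% against 0.0087% to 0.0182%, where the gap took 0.998 of the range. Both gaps were past Dixon's 95% limit for 4 libraries, which chance passes in about 1 of 20 groups, and 14 measures were tried. None of the 9 measures of Malat1, Neat1 and Kcnq1ot1 passed it.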

How the results depend on the processing

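Under 16 alternatives per RNA, the fold changes of Malat1, Neat1 and Kcnq1ot1 were positive in 15. Beside the share as covariate they turned to -0.19, -0.10 and -0.091, uncalled. Without a filter on low counts Malat1 was called (0.72, adjusted p = 0.000208), and with all uniquely mapped reads as library size Neat1 was (0.75). With 1 library left out the fold changes ran from 0.54 to 0.94 for Malat1, 0.80 to 1.17 for Neat1 and 0.50 to 0.75 for Kcnq1ot1, and the genes called in all from 193 (without control 2) to 3880 (without Cmtr1 cKO 4). Genes called numbered 2272 without a filter and 666 with the covariate. The cause of these changes was not tested. DESeq2 called none of the 3 (adjusted p = 0.169, 0.109 and 0.127). With the replicate number as a block 4842 genes were called and the 3 RNAs had 1.03, 1.31 and 0.85, all called, but numbers 1 and 2 are shared by both groups only in name. Deviations of like-numbered libraries from their group means had r = 0.125 and -0.131, and the block fit leaves 1 residual degree of freedom. The terms for the share, a test chosen after seeing the data, were called under all 9 alternatives, from 0.54 to 0.85 per 10 points for Malat1, 0.66 to 0.89 for Neat1 and 0.37 to 0.62 for Kcnq1ot1. The difference in the share itself ran from 9.83 to 14.6 points with 1 library left out, and that in the summed share of the 3 RNAs from 0.583 to 0.95 points. For lists of noncoding genes the fit to protein-coding genes gave no value. Depth was not varied.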
